A study of Homo sapiens with 8 samples.

Results

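The genes described here are 34 nuclear receptor genes outside the steroid receptor subfamily, chosen by symbol from a deposited table of 26364 genes measured by RNA-seq in Ishikawa cells, an established line from a human endometrial adenocarcinoma. They comprise the thyroid hormone receptors, the lipid, bile acid and xenobiotic sensors, the orphan receptors, and RXRB and RXRG, which pair with many of these receptors on DNA. RXRA, the retinoic acid receptors, VDR, the NR1D receptors and the steroid receptors are not members and are given briefly for comparison. The cells were kept in hormone-depleted medium and received DMSO vehicle, dexamethasone at 100 nM (a synthetic glucocorticoid), 17-beta-estradiol at 10 nM, or both hormones together. Each of these 4 groups has 2 libraries, 8 in all. The sample labels give 8 hours of treatment, whereas the protocol text shared by all samples gives 1 hour, so the duration cannot be settled from the labels. The series title puts the crosstalk of glucocorticoid receptor and estrogen receptor alpha in endometrial cancer at the centre of the study. Separate cultures for the 2 libraries of a group are not stated in the labels, so the p-values may reflect technical spread alone, and the results concern 1 cell line.

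Nuclear receptors are transcription factors with a zinc-finger DNA-binding domain and, in most members, a ligand-binding domain whose shape changes with its ligand. Thyroid hormone, fatty acid, oxysterol, bile acid and xenobiotic receptors mostly bind DNA as heterodimers with a retinoid X receptor, at repeats of the half-site AGGTCA. Orphan members such as the NR4A, COUP-TF and estrogen-related receptors act largely without a known endogenous ligand. For the NR4A factors, the transcript level sets much of the activity. In the endometrium the COUP-TF factor NR2F2 is best known from the stroma, where it takes part in the response to progesterone and in decidualization.

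Total gene counts ran from 17846211 to 22487333 a library, with 16969 to 17507 genes detected. Levels are given below in CPM, the count relative to the size of its library, after scaling by edgeR's trimmed mean of M values, and they are relative, so less of a transcript per cell and fewer cells carrying it cannot be told apart. Known hormone targets served as a check of the labels: TSC22D3, PER1 and FKBP5, glucocorticoid-induced genes, were higher with dexamethasone (3 of 3), PGR and GREB1, estrogen-induced genes, were higher with estradiol (2 of 2), and all 5 were higher with both hormones; the GREB1 call for estradiol alone was lost without estradiol library 1 (adjusted p = 0.0791) or 2 (0.123). Dexamethasone library 1 stood apart at the estrogen-induced genes, with PGR at 8.91 CPM against 2.47 CPM in dexamethasone library 2. Epithelial markers summed to 3590 to 5122 CPM over 11 genes, with 1 averaging below 1 CPM and none at 0. Fibroblast markers summed to 138 to 201 CPM over 10 genes, with COL1A1 the highest, 6 below 1 CPM, and POSTN and FAP at 0. Endothelial markers summed to 8.00 to 11.8 CPM over 8 genes, with ESAM the highest, 6 below 1 CPM and none at 0. Leukocyte markers summed to 1.21 to 3.09 CPM over 8 genes, with 7 below 1 CPM, and CD3E and NKG7 at 0.

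Of the 34 members, 22 had enough counts to be tested and 12 did not. The 12 comprised 3 genes listed at 0 in all 8 libraries (ESRRB, NR0B1 and RXRB) and 9 with between 1 and 57 counts over all libraries together. These 9 were the retinoid partner RXRG and the xenobiotic sensor NR1I2 with 1 count each, the steroidogenic factor NR5A1 with 4, the corepressor NR0B2 with 5, the bile acid receptor NR1H4 with 8, ESRRG with 11, the photoreceptor factor NR2E3 with 18, the hepatocyte factor HNF4A with 33, and the neural factor NR2E1 with 57. A count of 0 in a library allows a level of up to 0.132 to 0.169 CPM (3 counts), a limit that covers counting error only. This limit is not applied to RXRB, since 38 of its 50 nearest genes also had fewer than 100 counts in all, as described below. Among the 22 tested members, 6 averaged below 1 CPM, 7 averaged 1 to 10 CPM, 6 averaged 10 to 50 CPM and 3 averaged 50 CPM or more.

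**Figure D1:**
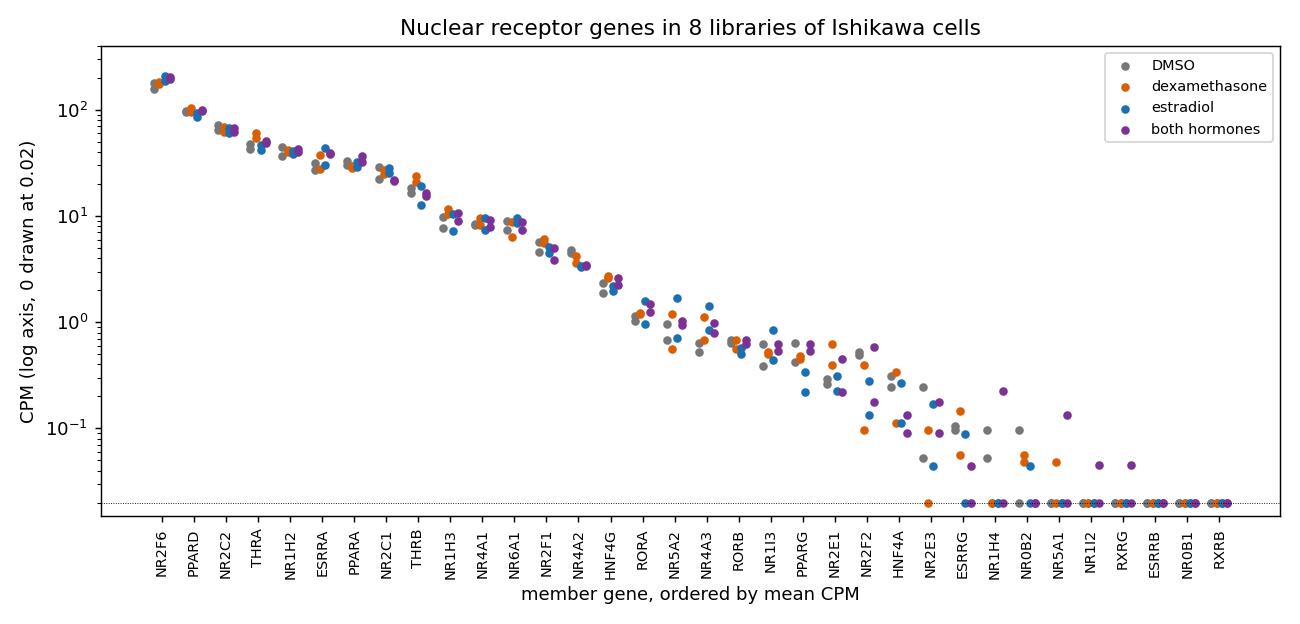
Level of each of the 34 receptor genes, in CPM on a log axis, with 1 point for each of the 8 libraries, coloured by treatment, and genes ordered by their mean level; a level of 0 is drawn at 0.02. Levels run from NR2F6 at 156 to 208 CPM down to ESRRB, NR0B1 and RXRB at 0.

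Ranked per kilobase of exon, so that levels can be compared between genes, NR2F6 was the most abundant member. NR2F6, a COUP-TF family orphan that mostly represses transcription, stood at 64.8 to 86.4 CPM per kb over the 8 libraries, with a mean of 77.1. The fatty acid sensor PPARD followed at 21.6 CPM per kb (range 19.2 to 23.6), then the oxysterol receptor NR1H2 (LXR beta) at 19.4 (17.5 to 21.5) and ESRRA, a regulator of mitochondrial genes, at 14.1 (11.2 to 17.7). THRA, the thyroid hormone receptor alpha gene, at 7.95 CPM per kb (6.74 to 9.76), and the testicular receptor NR2C2 at 7.71 (7.10 to 8.43) completed the 6 highest. In this order NR2F6 did not overlap PPARD in any library, and ESRRA did not overlap THRA, whereas PPARD overlapped NR1H2, NR1H2 overlapped ESRRA, and THRA overlapped NR2C2. Exon lengths came from GENCODE 29, while the annotation behind the counts is not stated, so the per-kilobase values depend on that choice. On the CPM scale, 92.3% of the 14201 tested genes lay below NR2F6, 82.4% below PPARD, 73.9% below NR2C2 and 0.43% below NR2F2.

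Families were unevenly filled. Of the PPAR genes, PPARD averaged 96.3 CPM and PPARA 31.5 CPM, while PPARG, the adipogenic member, averaged 0.463 CPM with 5 to 14 counts in a library. Of the estrogen-related receptors, ESRRA averaged 34.4 CPM, ESRRG had 11 counts in all and ESRRB none. Of the COUP-TF genes, NR2F1 averaged 5.04 CPM and NR2F2 only 0.334 CPM, with 2 to 13 counts in a library, beside 185 CPM for NR2F6. RXRA, the third retinoid X receptor and no member, stood at 64.6 to 89.7 CPM, and was the RXR gene with more than 1 count in this table.

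The promoters of the members were set beside their levels. RefSeq promoters on GRCh38.p14, from 250 bases before to 50 bases after the annotated start, were found for 30 of the 34 members; HNF4G, NR2F6, NR4A2 and NR0B2 had no entry. The 250 bases before the start are printed 5′ to 3′ for the 2 members with the highest level and the 2 with the lowest nonzero level among those whose window holds no annotated exon, with each CpG in capitals. PPARD lies at chr6:35342308-35342557, ESRRA at chr11:64305274-64305523, NR2E3 at chr15:71810304-71810553 and NR1H4 at chr12:100503110-100503359, all on the + strand.
PPARD: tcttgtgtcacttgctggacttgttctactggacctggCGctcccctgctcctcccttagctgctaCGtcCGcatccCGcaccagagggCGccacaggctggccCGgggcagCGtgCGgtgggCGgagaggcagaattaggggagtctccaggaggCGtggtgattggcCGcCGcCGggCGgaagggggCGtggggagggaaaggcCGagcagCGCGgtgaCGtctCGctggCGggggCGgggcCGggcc
ESRRA: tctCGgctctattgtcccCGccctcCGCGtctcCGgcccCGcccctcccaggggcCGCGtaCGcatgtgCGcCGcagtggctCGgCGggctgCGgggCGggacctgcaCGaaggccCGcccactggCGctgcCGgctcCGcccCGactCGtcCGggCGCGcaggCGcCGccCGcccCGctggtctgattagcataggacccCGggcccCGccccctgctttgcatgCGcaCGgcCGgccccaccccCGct
NR2E3: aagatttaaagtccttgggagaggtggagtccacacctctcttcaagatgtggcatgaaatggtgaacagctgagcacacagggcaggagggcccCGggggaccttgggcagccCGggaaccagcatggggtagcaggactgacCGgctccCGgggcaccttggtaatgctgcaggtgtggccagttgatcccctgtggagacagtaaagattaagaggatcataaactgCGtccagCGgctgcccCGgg
NR1H4: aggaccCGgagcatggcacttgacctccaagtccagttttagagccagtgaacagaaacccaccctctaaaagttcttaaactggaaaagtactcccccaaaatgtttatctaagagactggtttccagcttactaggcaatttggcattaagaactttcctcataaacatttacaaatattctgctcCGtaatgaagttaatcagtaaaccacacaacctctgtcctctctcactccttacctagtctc
The PPARD window holds 23 CpGs and the ESRRA window 35, against 7 for NR2E3 and 2 for NR1H4.

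Over the full 300-base windows, the observed over expected CpG ratio, which is 1 when CpGs are as frequent as the C and G content predicts, had a median of 0.891 in the 8 members averaging 10 CPM or more. All 8 reached 0.6, the limit used for CpG islands. The 22 members below 10 CPM, RXRB and its listed 0 among them, had a median of 0.555, with 11 of 22 at 0.6 or more, and all 27305 RefSeq promoters had a median of 0.577, with 48.8% at 0.6 or more. The level did not follow the ratio gene by gene: RXRG had a ratio of 0.972 with 1 count, NR0B1 had 0.85 with no counts, while NR1H3 and NR4A1 averaged 9.63 and 8.56 CPM with ratios of 0.105 and 0.235. The 10 CPM boundary was chosen after these values were seen, and no test was made.

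**Figure D2:**
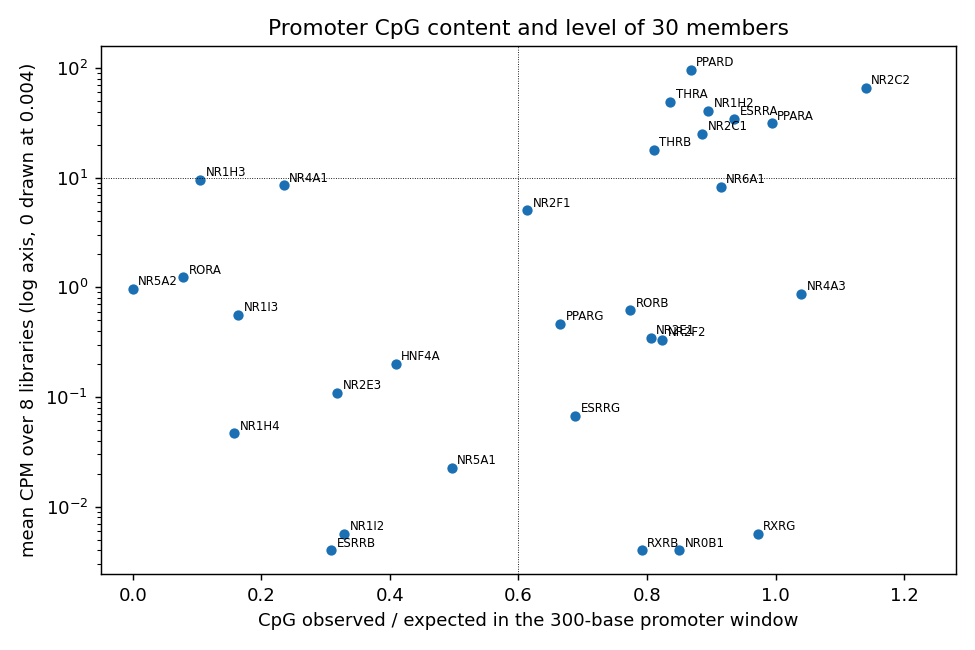
Observed over expected CpG ratio of the 300-base promoter window against the mean level over the 8 libraries, in CPM on a log axis, for the 30 members with a RefSeq promoter; dotted lines mark a ratio of 0.6 and a level of 10 CPM, and a level of 0 is drawn at 0.004, RXRB included, whose 0 is not read as a low level. The 8 members at 10 CPM or more all lie at 0.811 or above, and the members below 10 CPM spread from 0.0 to 1.04.

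Both strands of the same windows were searched for the letters of receptor half-sites and elements. AGGTCA was present in the windows of 6 of 30 members (NR0B1, NR1H3, NR1H4, NR5A2, PPARG and RXRG), beside 14% of all promoters. AAAGGTCA, an extended half-site that contains AGGTCA, was present in the PPARG window and in 1.24% of all promoters. TGACGTCA, the cyclic AMP response element, was present in NR2E1 and NR6A1 and in 1.97% of all promoters. None of the 30 windows held the core of the palindromic estrogen response element (0.0659% of all promoters), its full form, which contains that core (0.00366%), the full palindromic glucocorticoid response element (0.00366%) or ACANNNTGT, which lies within the last (5.44%). These counts describe letters in short windows and do not show binding.

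None of the 22 tested members changed in any of the 8 comparisons by edgeR's quasi-likelihood test with Benjamini-Hochberg adjustment over all 14201 tested genes at 0.05. The same test called 0.965% of all tested genes for dexamethasone alone against vehicle, 1.8% for estradiol alone and 2.19% for both hormones. It called 0.275% of genes for both hormones against estradiol, 2.67% for both against dexamethasone, 0.0211% for the interaction, which asks whether the combination departs from the product of the single effects, 1.07% for the dexamethasone effect averaged over both estradiol levels and 5.8% for the estradiol effect averaged over both dexamethasone levels. At these shares, fewer than 2 of 22 members would be called in each comparison if members were called as often as other genes. The count of 0 is thus close to the background. The members were chosen with earlier results of these data known, which may bear on that count. With an unadjusted p below 0.05 there were 1, 3, 3, 2, 1, 0, 1 and 4 members in those 8 comparisons in the same order, beside 9.84%, 11.4%, 10.8%, 6.37%, 16.7%, 5.16%, 10.2% and 20.1% of all tested genes. DESeq2 and limma-voom also called 0 members in each of the 8, with 1, 1, 2, 0, 1, 0, 1 and 3 members at an unadjusted p below 0.05 by DESeq2 and 1, 2, 2, 2, 1, 0, 1 and 3 by limma-voom.

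The intervals show how large a change these libraries leave room for. Under dexamethasone, the 95% interval of the change lay within 2-fold either way for 17 of 22 members, and within 1.5-fold for 10. For estradiol these counts were 16 and 13, and for both hormones 16 and 10. The members whose interval reached past 2-fold in these 3 comparisons were NR1I3, NR2F2, NR4A3, NR5A2, PPARG, RORA and RORB, each averaging 1.24 CPM or less. The narrowest interval was that of PPARD, 0.21 on the log2 scale to each side, and the widest that of NR2F2, 1.57, 1.61 and 1.38 to each side. The median log2 change of the 22 members was 0.06 for dexamethasone, -0.03 for estradiol and 0.09 for both, beside 0.00, -0.00 and -0.00 over all tested genes.

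**Figure D3:**
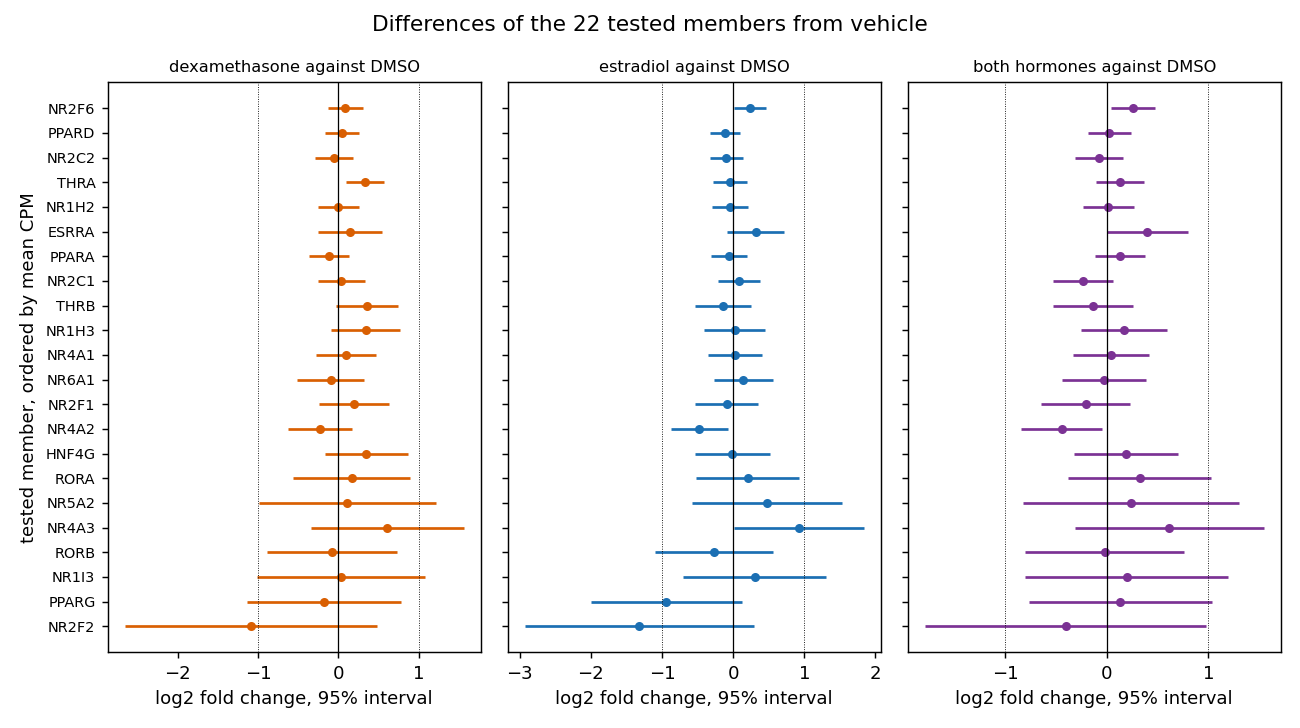
Log2 change of each of the 22 tested receptor genes against vehicle for dexamethasone, estradiol and both hormones, with points for the edgeR estimate and bars for its 95% interval, not adjusted for the number of genes; dotted lines mark 2-fold. Intervals are narrow for PPARD, NR1H2, NR2C2 and NR2F6 and wide for NR2F2, PPARG and NR4A3, and none of the points passed the adjusted threshold.

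Counting members whose 2 libraries of one group all lay above or below the 2 of the other gave a like picture. With dexamethasone alone 6 of 22 members had both libraries above both vehicle libraries and 3 had both below, beside 18.5% and 17.7% of all tested genes. With estradiol alone 2 were above and 5 below (18.3% and 17.9% of all genes), and with both hormones 5 were above and 3 below (19.8% and 19.3%). With 2 libraries a group such separation is common, and in these 3 comparisons the members' counts were near the background. For both hormones against dexamethasone 6 members were above and 6 below, and against estradiol 7 were above and 1 below. The share over all tested genes is not given for these last 2. Neither their counts nor the split of 7 above and 1 below can therefore be judged against a background.

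THRA and THRB encode the nuclear receptors for thyroid hormone. THRA stood at 43.1 and 47.9 CPM with vehicle, 54.1 and 60.5 with dexamethasone, 41.8 and 46.6 with estradiol, and 50.9 and 49.0 with both. The libraries that received dexamethasone were all above the libraries that did not. The dexamethasone effect averaged over both estradiol levels was 0.25 ± 0.08 on the log2 scale (standard error, 4 libraries against 4; edgeR adjusted p = 0.235), and against vehicle alone it was 0.33 ± 0.11 (adjusted p = 0.289). THRA shares 263 exonic bases (4.24% of its exons) with NR1D1 on the opposite strand. NR1D1, a clock repressor, had 624 counts in all beside 8043 for THRA. Its log2 change with dexamethasone was -0.45 ± 0.22 (edgeR adjusted p = 0.552). Whether reads in the shared bases bear on the THRA values was not tested. THRB stood at 18.4 and 16.6 CPM with vehicle, 21.1 and 23.6 with dexamethasone, 19.3 and 12.6 with estradiol, and 15.4 and 16.6 with both. The 2 dexamethasone libraries were the highest of the 8 and the 2 estradiol libraries lay far apart. For both hormones against dexamethasone the log2 difference was -0.49 ± 0.18 (edgeR adjusted p = 0.195), and against vehicle the dexamethasone difference was 0.35 ± 0.18 (adjusted p = 0.567). Without estradiol library 1, THRB passed the threshold for the averaged estradiol effect (log2 change -0.48, adjusted p = 0.0388; -0.32 and 0.189 with all 8 libraries).

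Among 13 thyroid hormone transporters, deiodinases and target genes, 6 were tested. For each single or combined treatment against vehicle edgeR called 0 of 6, with 0, 4 and 1 at an unadjusted p below 0.05 for dexamethasone, estradiol and both, and DESeq2 and limma-voom called 0. In the averaged estradiol effect HR, a thyroid receptor corepressor, was higher (log2 change 1.37 ± 0.29, adjusted p = 0.0188), a call lost without estradiol library 1 (adjusted p = 0.0538) or 2 (0.0972), and DBP, a clock output factor, was lower (-0.78 ± 0.18, adjusted p = 0.0304), a call lost without any 1 library other than vehicle library 1 and dexamethasone library 1 (adjusted p of 0.0662 to 0.134).

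PPARD, the most abundant of the fatty acid sensors, stood at 98.5 and 95.7 CPM with vehicle, 105 and 94.5 with dexamethasone, 85.5 and 93.8 with estradiol, and 97.3 and 100.3 with both. The estradiol libraries were the lowest of the 8, with a 95% interval for estradiol against vehicle of -0.33 to 0.10 on the log2 scale (edgeR adjusted p = 0.798), and the other groups overlapped. PPARA, the fatty acid oxidation regulator, stood at 33.1 and 30.2 CPM with vehicle, 29.9 and 28.6 with dexamethasone, 32.2 and 28.7 with estradiol, and 32.3 and 36.9 with both. The combination libraries lay above both dexamethasone libraries, a log2 difference of 0.24 ± 0.11 (edgeR adjusted p = 0.301). PPARG stood at 0.420 and 0.632 CPM with vehicle, 0.482 and 0.449 with dexamethasone, 0.338 and 0.221 with estradiol, and 0.621 and 0.539 with both. The estradiol libraries were the lowest of the 8, on 6 and 5 counts, and for both hormones against estradiol the log2 difference was 1.07 ± 0.46 (edgeR adjusted p = 0.763). Of 20 PPAR target genes 13 were tested, and edgeR called 0 for dexamethasone, 1 for estradiol and 0 for both, with 2, 3 and 1 at an unadjusted p below 0.05; DESeq2 and limma-voom gave the same counts of calls, 0, 1 and 0. The 1 was TXNIP, an inhibitor of thioredoxin, which stood at 83.1 and 90.6 CPM with vehicle and 58.2 and 66.1 with estradiol (log2 change -0.48 ± 0.10, adjusted p = 0.039). The TXNIP call did not hold without vehicle library 2 (adjusted p = 0.232), estradiol library 1 (0.25) or 2 (0.105), or combination library 1 (0.0789) or the unnumbered one (0.0799), and in the fit of the 2 groups alone (0.0875).

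NR1H2 and NR1H3 encode the liver X receptors, which respond to oxysterols and drive cholesterol export. NR1H2 stood at 36.7 and 45.1 CPM with vehicle, 41.7 and 39.9 with dexamethasone, 38.6 and 40.9 with estradiol, and 42.9 and 39.8 with both, and no group stood apart. NR1H3 stood at 7.77 and 9.72 CPM with vehicle, 10.4 and 11.7 with dexamethasone, 7.26 and 10.4 with estradiol, and 10.7 and 9.02 with both. Both dexamethasone libraries lay above both vehicle libraries, a log2 difference of 0.34 ± 0.19 (edgeR adjusted p = 0.618). NR1H3 shares 189 exonic bases with ACP2 on the opposite strand.

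Of 15 liver X receptor target genes 14 were tested, and edgeR called 0 for dexamethasone (1 at an unadjusted p below 0.05; 0 by DESeq2 and limma-voom). ABCA1, the cholesterol efflux pump, was called lower with both hormones. It stood at 21.6 and 20.9 CPM with vehicle, 22.7 and 24.5 with dexamethasone, 15.9 and 10.9 with estradiol, and 10.9 and 13.3 with both (both against vehicle -0.81 ± 0.17 on the log2 scale, edgeR adjusted p = 0.034). All 4 libraries with estradiol lay below all 4 without it. In the averaged estradiol effect the log2 change of ABCA1 was -0.82 ± 0.12 (edgeR adjusted p = 0.00271), and this call held in each fit that left out 1 library. For both hormones against vehicle, the ABCA1 call was lost without vehicle library 1 (adjusted p = 0.089) or 2 (0.0682), or combination library 1 (0.335) or the unnumbered one (0.0645).

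The bile acid and xenobiotic sensors were barely present: NR1H4 had 8 counts in all, NR1I2 had 1, and NR1I3 stood at 0.389 to 0.845 CPM. NR1I3 shares 661 exonic bases (32.2% of its exons) with TOMM40L on the opposite strand, which had 4659 counts in all beside 91 for NR1I3. The library kit keeps strand, per the labels, but whether the counting used strand is not stated there. Counts of TOMM40L and NR1I3 in the shared bases cannot be told apart here, and likewise for the other overlapping members. Of 8 bile acid target genes 4 were tested, with 0 called by edgeR, DESeq2 or limma-voom for any treatment against vehicle (1 at an unadjusted p below 0.05 in each by edgeR). FGF19, the ileal bile acid signal, was higher in the averaged estradiol effect (log2 change 1.80 ± 0.28, adjusted p = 0.00315), at 0.168 to 0.486 CPM without estradiol and 1.12 to 1.35 CPM with it. Of 13 xenobiotic target genes 6 were tested, and edgeR, DESeq2 and limma-voom called 0 for each treatment against vehicle, with 0 at an unadjusted p below 0.05 by edgeR.

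ESRRA, which with the PGC-1 coactivators drives mitochondrial genes, stood at 27.3 and 31.7 CPM with vehicle, 37.7 and 27.4 with dexamethasone, 30.1 and 43.3 with estradiol, and 38.7 and 39.3 with both. The combination libraries lay close together and above both vehicle libraries (log2 difference 0.40 ± 0.18, edgeR adjusted p = 0.463), while the libraries of each single hormone lay far apart. ESRRA shares 284 exonic bases (11.6%) with TRMT112 on the opposite strand. Of 19 genes of the estrogen-related receptor and PGC-1 list 18 were tested, ESRRA among them. PPARGC1A, the inducible coactivator PGC-1 alpha, was called higher with dexamethasone, at 4.15 and 3.31 CPM with vehicle and 10.6 and 12.0 with dexamethasone. Its log2 change was 1.60 ± 0.18 (edgeR adjusted p = 0.00111), and the call held in each fit that left out 1 library. PPARGC1A stood at 2.08 and 1.90 CPM with estradiol and 4.70 and 5.39 with both, above the estradiol libraries (both against estradiol 1.34 ± 0.20, adjusted p = 0.0192), and below those with dexamethasone alone (-1.16 ± 0.17, adjusted p = 0.00655). The call for both against estradiol was lost without estradiol library 1 (adjusted p = 0.182) or 2 (0.312), or combination library 1 (0.0728) or the unnumbered one (0.157). The call for both against dexamethasone was lost without dexamethasone library 2 (0.0542) or combination library 1 (0.0801).

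PPARGC1B, PGC-1 beta, stood at 16.4 and 14.6 CPM with vehicle and 29.7 and 28.5 with estradiol, a log2 change of 0.91 ± 0.15 (edgeR adjusted p = 0.00931). It stood at 16.6 and 12.6 CPM with dexamethasone and 21.9 and 25.6 with both. The estradiol call was lost without vehicle library 2 (adjusted p = 0.0551), estradiol library 1 (0.102) or estradiol library 2 (0.105). No other gene of the list was called against vehicle, and with both hormones edgeR called 0 of 18, with 5 at an unadjusted p below 0.05, while DESeq2 called 1 and limma-voom 0.

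The NR4A genes encode immediate-early orphan receptors whose transcripts respond to many stimuli within an hour. NR4A1 stood at 8.45 and 8.22 CPM with vehicle, 9.53 and 8.19 with dexamethasone, 7.32 and 9.54 with estradiol, and 7.94 and 9.25 with both, with overlapping groups. NR4A1 shares 754 exonic bases (18.6%) with the noncoding AC025259.3 on the opposite strand. NR4A2 stood at 4.78 and 4.52 CPM with vehicle, 4.24 and 3.65 with dexamethasone, 3.32 and 3.36 with estradiol, and 3.37 and 3.46 with both. All 4 libraries with estradiol lay below all 4 without it. The log2 change with estradiol was -0.48 ± 0.18 (edgeR adjusted p = 0.318), with both -0.44 ± 0.18 (adjusted p = 0.386), and in the averaged estradiol effect -0.34 ± 0.13 (adjusted p = 0.17). NR4A3 stood at 0.525 and 0.632 CPM with vehicle, 0.674 and 1.12 with dexamethasone, 1.41 and 0.839 with estradiol, and 0.799 and 0.988 with both. The vehicle libraries were the lowest, on 10 and 13 counts, and the estradiol difference was 0.92 ± 0.41 on the log2 scale (edgeR adjusted p = 0.432).

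Of 13 early genes known to be induced with the NR4A genes, 12 were tested. EdgeR called 0 for dexamethasone (4 at an unadjusted p below 0.05; 0 by DESeq2 and limma-voom), and 1 higher and 1 lower for each of estradiol and both. EGR3, an early growth response factor, was higher at 2.42 and 2.52 CPM with estradiol against 0.997 and 0.875 with vehicle (log2 change 1.40 ± 0.26, adjusted p = 0.0242). JUNB, an AP-1 subunit, was lower at 35.3 and 44.0 CPM with estradiol against 58.4 and 75.3 with vehicle (-0.75 ± 0.15, adjusted p = 0.0312). For both hormones the values were 1.25 ± 0.26 for EGR3 (adjusted p = 0.0341) and -0.66 ± 0.15 for JUNB (adjusted p = 0.0498). The EGR3 estradiol call was lost without any 1 of the vehicle or estradiol libraries (adjusted p of 0.0733 to 0.211) and under DESeq2 (0.082), and that of JUNB without vehicle library 2 (0.19), estradiol library 1 (0.249) or estradiol library 2 (0.105). For both hormones the EGR3 call was lost without any 1 library other than the dexamethasone ones (adjusted p of 0.075 to 0.29), under DESeq2 (0.175) and in the fit of the 2 groups alone (0.0794). That of JUNB was lost without any 1 library other than vehicle library 1 (0.0516 to 0.344), under limma-voom (0.0569), with DESeq2's size factors (0.0517) and in the fit of the 2 groups alone (0.0719).

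NR2F6 stood at 156 and 178 CPM with vehicle, 181 and 174 with dexamethasone, 186 and 208 with estradiol, and 203 and 197 with both. All 4 libraries with estradiol lay above all 4 without it. The averaged estradiol effect was 0.20 ± 0.07 on the log2 scale (edgeR adjusted p = 0.132), that of estradiol alone 0.24 ± 0.10 (adjusted p = 0.376) and that of both 0.26 ± 0.10 (adjusted p = 0.343). NR2F6 and NR4A2 were the 2 of 22 members whose libraries separated entirely by estradiol, 1 higher and 1 lower, beside 5.57% and 5.89% of all tested genes. NR2F6 shares 221 exonic bases (9.19%) with AC010646.1 on the same strand. THRA was the 1 member that separated by dexamethasone, beside 2.27% of genes higher and 1.44% lower.

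NR2F1 stood at 4.57 and 5.64 CPM with vehicle, 5.63 and 6.06 with dexamethasone, 4.45 and 5.12 with estradiol, and 3.82 and 5.03 with both (both against dexamethasone -0.40 ± 0.20 on the log2 scale, edgeR adjusted p = 0.34). NR2F2 stood at 0.525 and 0.486 CPM with vehicle, 0.0963 and 0.393 with dexamethasone, 0.282 and 0.132 with estradiol, and 0.177 and 0.584 with both. NR2F2 had 2 to 13 counts a library, with both dexamethasone libraries and both estradiol libraries below both vehicle libraries, while the combination overlapped every other group. The interaction estimate of 2.00 ± 1.04 on the log2 scale had an adjusted p of 0.958. Of 10 genes known to act with NR2F2 in the endometrium 6 were tested, and SOX17, an epithelial transcription factor, was the 1 called against vehicle. SOX17 stood at 59.6 and 68.9 CPM with vehicle, 109 and 111 with dexamethasone, 80.2 and 93.9 with estradiol, and 126 and 126 with both. Its log2 change was 0.78 ± 0.11 with dexamethasone (edgeR adjusted p = 0.00538) and 0.97 ± 0.11 with both (adjusted p = 0.000811), and neither call was lost in any fit that left out 1 library. For estradiol alone edgeR and limma-voom called 0 of 6 and DESeq2 called 1, with 1 at an unadjusted p below 0.05 by edgeR.

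The testicular receptor NR2C1 stood at 28.8 and 22.2 CPM with vehicle, 24.8 and 27.3 with dexamethasone, 28.2 and 25.7 with estradiol, and 22 and 21.4 with both. The combination libraries were the lowest of the 8, and against estradiol the log2 difference was -0.31 ± 0.13 (edgeR adjusted p = 0.761). NR2C2 stood at 72.2 and 65.2 CPM with vehicle, 69.4 and 62.5 with dexamethasone, 67.9 and 60.8 with estradiol, and 62.3 and 68.1 with both, with overlapping groups, and it shares 756 exonic bases (8.83%) with MRPS25 on the opposite strand. HNF4G, the second hepatocyte nuclear factor 4 gene, stood at 1.89 and 2.33 CPM with vehicle, 2.74 and 2.64 with dexamethasone, 1.97 and 2.21 with estradiol, and 2.22 and 2.60 with both. Its averaged dexamethasone effect was 0.27 ± 0.16 on the log2 scale (edgeR adjusted p = 0.6). Of 14 target genes of HNF4A 3 were tested, with 0 called by edgeR, DESeq2 or limma-voom for any treatment against vehicle, and 0, 0 and 1 at an unadjusted p below 0.05 by edgeR.

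Of the remaining orphan receptors, RORA, RORB and NR5A2 were low and NR6A1 stood higher. The circadian orphan RORA ranged from 0.971 to 1.58 CPM and RORB from 0.507 to 0.682 CPM. NR5A2, a regulator of steroid and bile acid synthesis, ranged from 0.561 CPM in dexamethasone library 2 to 1.69 CPM in estradiol library 1. The germ cell factor NR6A1 ranged from 6.40 to 9.57 CPM. Of 12 steroidogenic genes tied to NR5A1 and NR0B1, 5 were tested, with 0 called by edgeR, DESeq2 or limma-voom for any treatment against vehicle, and 1, 1 and 0 at an unadjusted p below 0.05 by edgeR.

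RXRB, which encodes a broadly expressed retinoid X receptor, was listed at 0 in all 8 libraries, and its neighbours in gene order were checked after that value was seen. Of the 50 nearest protein-coding genes, 25 on each side in RefSeq order on chromosome 6, 26 (52.0%) were also at 0 and 38 had fewer than 100 counts in all. For ESRRB 3 of 50 neighbours were at 0 and for NR0B1 13 of 50, and over the other members the share ran from 0% to 24%, beside 14.4% of 17912 matched protein-coding genes in the table. The neighbours of RXRB at 0 included TAP1, TAP2, PSMB8 and PSMB9, which act in antigen presentation, and SLC39A7, HSD17B8 and RING1. RPS18, a ribosomal protein gene 5 genes away, had 131 counts in all, against a median of 112516 over 77 ribosomal protein genes. Of those 77 genes, 2 had fewer counts than RPS18. Further along, BAK1 had 10589 counts and ITPR3 had 31753. A 0 for RXRB therefore stands in a run of genes with few or no counts, one of them a ribosomal protein gene that every cell uses, and is given here only as listed at 0; the cause was not tested.

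**Figure D4:**
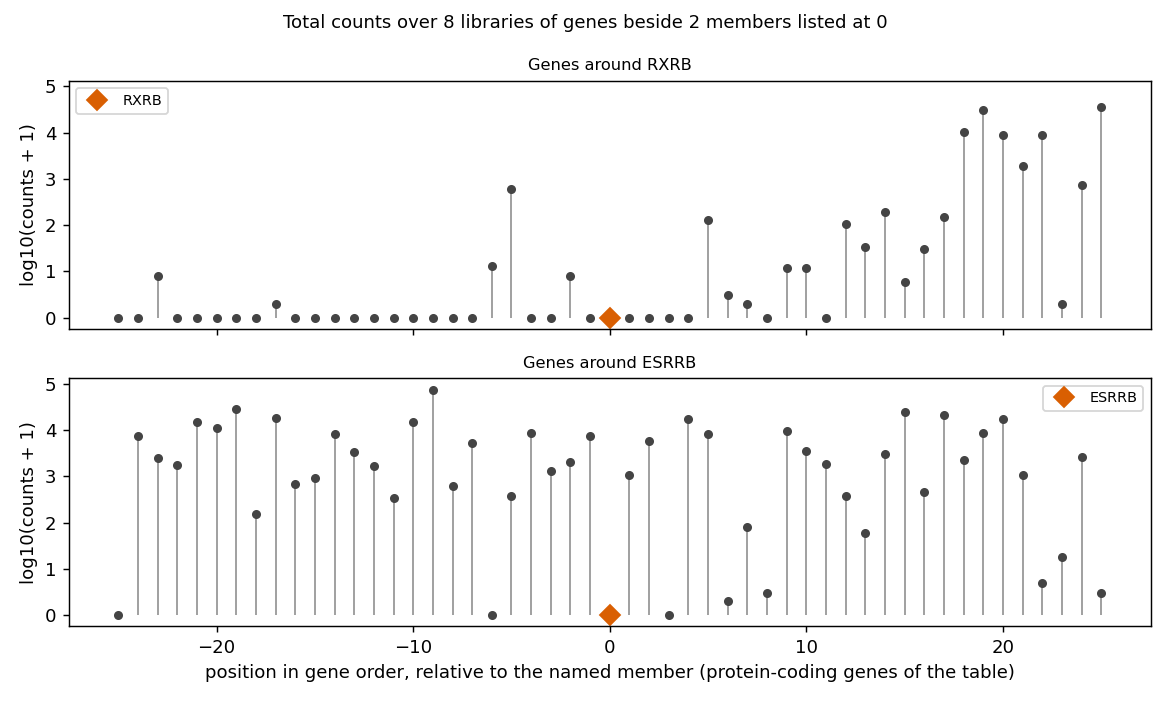
Total counts over the 8 libraries, as log10 of the count plus 1, of the 25 protein-coding genes on each side of RXRB (upper panel) and ESRRB (lower panel) in gene order, with the member itself as a diamond. RXRB has 26 of 50 neighbours at 0 and ESRRB has 3.

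The other nuclear receptors, measured in the same libraries, are given beside the members. All 14 were tested, and edgeR called VDR higher and NR1D2 lower with dexamethasone, PGR, RARA and VDR higher and ESR1 lower with estradiol, and PGR, RARA and VDR higher with both. VDR, the vitamin D receptor and another partner of the retinoid X receptors, stood at 19.7 and 20.4 CPM with vehicle and 43.8 and 44.4 with dexamethasone (2.20-fold, edgeR adjusted p = 0.000179). NR1D2, a clock repressor, stood at 52.9 and 46.3 CPM with vehicle and 27.1 and 25.4 with dexamethasone (log2 change -0.92 ± 0.13, adjusted p = 0.00628). The VDR and NR1D2 calls for dexamethasone held in each fit that left out 1 library. With estradiol, the VDR call was lost without any 1 of the vehicle or estradiol libraries (adjusted p of 0.0587 to 0.147), that of RARA without vehicle library 1 (0.0591) or 2 (0.103) or estradiol library 2 (0.245), and that of ESR1 without vehicle library 1 (0.199) or any 1 estradiol or combination library (0.0838 to 0.304), with the stricter filter (0.0566) and in the fit of the 2 groups alone (0.0933). With both, the RARA call was lost without any 1 vehicle, dexamethasone or combination library (0.0675 to 0.371) and under limma-voom (0.0575) or DESeq2's size factors (0.0502). Whether members and other receptors differ in how often they were called was not tested.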

How the data were processed

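Libraries were made with a stranded mRNA kit, per the labels' protocols. The file used holds unnormalised gene counts, as deposited by the authors. HISAT2 2.0.4, Subread, featureCounts 1.5.1, DESeq2 1.14.1 and the hg19 build are named in the submitters' processing notes, without their roles. The normalised table was not used here. One combination column carries no replicate number that matches a single sample and was used as an unnumbered replicate. Counts were fitted with edgeR 4.0.16 in R 4.3.3 (limma 3.58.1): 8 libraries, 4 groups, 4 residual degrees of freedom, TMM scaling, filterByExpr (14201 genes kept), quasi-likelihood tests and Benjamini-Hochberg adjustment at 0.05 in 8 contrasts. Alternatives were DESeq2 1.42.0, limma-voom, DESeq2 size factors, no filter, CPM above 1 in at least 2 libraries, the compared groups alone, each library left out, and the replicate block. The edgeR step was tested on simulated data, with changes planted only in genes above 2 CPM with vehicle, so members below that level were not covered. Per-library values are given for the 3 members with the smallest p in each contrast and the 6 highest per kilobase; called genes are named from each pathway list, except 1 that is not reported here. The members and lists were chosen with earlier results of these data known. Exon lengths and overlaps came from GENCODE 29, promoters from RefSeq (GRCh38.p14), and similar transcripts from blastn 2.17.0. Replicates differed by more than sampling noise (chi-square per degree of freedom of 9.93 to 25.6).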

Additional observations from a re-analysis of the deposited data

How the results depend on the processing

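The count of members called stayed at 0 in each contrast under DESeq2, limma-voom, DESeq2's size factors in edgeR and both other filters, and in the 5 contrasts of 2 groups with those groups alone in the fit. Leaving out 1 library at a time gave 0 to 1 members called for the averaged estradiol effect, the 1 being THRB without estradiol library 1, and 0 in the other contrasts, dexamethasone library 1 left out included. With the replicate number as a block, over the 7 numbered libraries, 1 member was called for the averaged dexamethasone effect, THRA at a log2 change of 0.31 ± 0.07 (adjusted p = 0.0418), and 0 in the other contrasts. The deviations of same-numbered libraries correlated at 0.243 (vehicle and dexamethasone), 0.153 (vehicle and estradiol) and 0.049 (dexamethasone and estradiol). Whether same-numbered libraries were prepared together is not stated in the labels and was not tested. All genes called for the averaged dexamethasone effect numbered 152 with 8 libraries, 110 with the 7 numbered ones and 464 with those and the block; THRA without the block had 0.27 ± 0.10 (adjusted p = 0.471). None of the named members' changes reversed among 348 values under alternatives. The named members had the smallest p of each contrast in the fit of 8 libraries, and the alternatives share most of these libraries. A kept direction was therefore likely beforehand. The number of all genes called ranged over the alternatives from 63 to 253 for dexamethasone (137 as reported), 58 to 442 for estradiol (256), 157 to 456 for both (311), 10 to 151 for both against estradiol (39), 89 to 658 for both against dexamethasone (379), 1 to 32 for the interaction (3), 82 to 464 for the averaged dexamethasone effect (152) and 422 to 1094 for the averaged estradiol effect (824). At low depth, near or below 1 CPM, 7 members had an interval past 2-fold in at least 1 contrast, and 2 libraries a group limit all. Intervals cover the spread between these libraries only.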
